A study of Homo sapiens with 36 samples.

Results

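The nuclear genes of the respiratory chain and ATP synthase were examined in RNA-seq counts of HepG2, an established human hepatoma cell line. Members were the gene rows whose symbols follow the naming patterns of complex I (NDUFA, NDUFB, NDUFC, NDUFS and NDUFV followed by a digit), complex II (SDHA to SDHD), complex III (UQCR), complex IV (COX4 to COX8) and complex V (ATP5), with a summed count of at least 360 over the 36 samples. Of 86 matching rows 79 were members, among 18932 genes in all: 37 of complex I, 4 of complex II, 9 of complex III, 11 of complex IV and 18 of complex V. The rule used no comparison between groups. No chromosome M gene was among the rows, so the subunits encoded in the mitochondrial DNA were not analysed here.

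Cells were treated with docosahexaenoic acid (DHA, 50 µM), propionate (PRO, 70 µM), protocatechuic acid (PCA, 20 µM), DHA + PRO, DHA + PCA, or BSA and vehicle alone (Ctrl), for 6 h or 24 h. Each of these 12 groups had 3 libraries, from the 3 independent cell cultures that the paper describes. The RNA of the wells within a culture was pooled before library preparation. All groups shared 1 cell line and serum-free medium during the incubation, so the time with a compound, the time without serum and the time since seeding cannot be told apart in a comparison of 24 h with 6 h. Total counts ran from 4659744 to 42326734 per library with a median of 7034006.5, and the second deepest library held 10788964. HepG2 carried its 8 hepatocyte markers, with ALB at a median of 26210 CPM at 6 h and 25924 CPM at 24 h, where CPM is the count per 1000000 reads of a library size scaled by TMM. Between these times the markers were not level, since 6 of the 8 rose (TTR by 1.56, SERPINA1 by 0.68 and AFP by 0.41 on the log2 scale, with TF, APOA1 and APOB), HNF4A fell (-0.25) and only ALB was not called. Their part in the results on time was not tested. Of the 8 markers of other cells only CD68 was above 10 CPM in any library, and of the 5 tested for time CD14 was called, lower at 24 h (at most 3.14 CPM).

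The respiratory chain passes electrons from NADH (complex I) and succinate (complex II) through ubiquinone, complex III and cytochrome c to oxygen at complex IV, and the proton gradient built on the way drives ATP synthesis by complex V. Most subunits are encoded in the nucleus and imported into the mitochondrion, and all subunits of complex II are nuclear. Many promoters of these genes are known to bind nuclear respiratory factor 1 (NRF1), the ETS factor GABPA (nuclear respiratory factor 2) and YY1. Hepatocytes use this system to oxidise fatty acids.

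Promoter windows of RefSeq (GRCh38.p14, 250 bases before to 50 after each gene's start) were at hand for 64 of the 79 members. The NRF1 core CGCATGCG was in 8 of the 64 windows (12.5%), against 2.02% of all 35116 windows and 3.81% of the 9510 windows of genes at the same count limit. The ETS core CCGGAAG, read on both strands, was in 19 windows (29.7%), against 10.3% of all windows and 19.7% at the count limit. The YY1 motif AAGATGGC, read on both strands, was in 12 windows (18.8%), against 2.89% and 5.72%. In 11 of these 12 the YY1 match reached into the 50 bases after the start, while 16 of the 19 members with an ETS match and 7 of the 8 with an NRF1 match had one before it. The ETS and YY1 letters can share AAG, and the matches overlapped in 0 of the 2 members with both (SDHB and ATP5J). A match is a description of these letters and not a bound site.

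Stretches upstream of 4 members are shown, lower case with matches to the NRF1 and ETS cores in capitals, all on GRCh38.p14 and written 5′ to 3′ on the strand of the gene. SDHB and NDUFA4 were the members with the largest falls with time, COX6A1 holds both an NRF1 and an ETS core, and NDUFV3 was the member with the clearest rise. The windows are chr1:17054033-17054282 (minus strand), chr7:10940154-10940403 (minus strand), chr12:120437863-120438112 (plus strand) and chr21:42893059-42893267 (plus strand, ending 42 bases before the start).
SDHB: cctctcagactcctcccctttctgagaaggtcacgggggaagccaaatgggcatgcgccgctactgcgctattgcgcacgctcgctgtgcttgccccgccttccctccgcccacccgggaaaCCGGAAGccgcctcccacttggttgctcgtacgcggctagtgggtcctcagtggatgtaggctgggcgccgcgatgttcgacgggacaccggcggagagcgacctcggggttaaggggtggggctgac
NDUFA4: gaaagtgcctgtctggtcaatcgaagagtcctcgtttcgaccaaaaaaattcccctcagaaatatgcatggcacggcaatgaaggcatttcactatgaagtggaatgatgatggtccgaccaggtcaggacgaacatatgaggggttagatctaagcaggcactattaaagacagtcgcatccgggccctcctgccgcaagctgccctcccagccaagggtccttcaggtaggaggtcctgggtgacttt
COX6A1: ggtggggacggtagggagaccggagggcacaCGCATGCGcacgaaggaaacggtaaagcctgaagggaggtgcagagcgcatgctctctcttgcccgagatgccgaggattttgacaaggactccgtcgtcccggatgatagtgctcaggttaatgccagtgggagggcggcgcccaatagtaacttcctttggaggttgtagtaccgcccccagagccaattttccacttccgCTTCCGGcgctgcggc
NDUFV3: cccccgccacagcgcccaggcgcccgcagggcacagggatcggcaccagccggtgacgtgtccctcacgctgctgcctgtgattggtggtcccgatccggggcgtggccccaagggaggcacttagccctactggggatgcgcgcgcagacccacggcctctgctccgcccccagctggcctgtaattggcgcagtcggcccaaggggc
The SDHB stretch holds 1 ETS core and COX6A1 holds its NRF1 core far upstream and its ETS core next to the start. None of the 3 motifs was in the letters shown for NDUFA4 and NDUFV3.

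Levels were compared between genes as RPKM, CPM per kilobase of the length counted by the authors. The members had a median of 87.4 RPKM, against 12.0 for the 11624 genes that reached the count limit, and 49 of the 79 lay in the top 10% of those genes. The counted length, by which RPKM divides, had a median of 843 bases in the members and 2931 in those genes. The median level was 61.4 RPKM in complex I, 64.6 in complex II, 131 in complex III, 227 in complex IV and 125 in complex V. Within complexes the range was wide in V, from 6.05 to 756 RPKM, and narrow in II, from 30.1 to 67.5 RPKM.

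In complex I the highest levels were those of NDUFS5 (325 ± 40.3 RPKM, SD, n = 36 samples of all groups) and NDUFB9 (218 ± 19.1), both accessory subunits, and the lowest was NDUFA5 (9.66 ± 2.78). NDUFA5 had a counted length of 5775 bases and a mean of 55.8 CPM. In complex II SDHA, the flavoprotein that oxidises succinate, stood at 67.5 ± 5.56 RPKM, and SDHB, the iron-sulfur subunit, at 65.2 ± 12.1. SDHC, a membrane anchor, was lowest at 30.1 ± 2.50 RPKM, on a counted length of 2837 bases. By mean CPM it was not lowest, at 85.5 against 74.6 for SDHB and 80.1 for SDHD. Their RPKM values place SDHA, SDHB and the other anchor SDHD (64.1 ± 10.2) within 1 SD of each other.

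In complex III UQCRC2, a core protein, had 206 ± 12.6 RPKM and UQCRH, the hinge protein near cytochrome c1, had 184 ± 22.8. UQCRB, which lies at the ubiquinone site, was lowest at 26.2 ± 4.45 RPKM, on a counted length of 4819 bases. Its mean of 126 CPM was above that of UQCRFS1 (77.7 CPM). In complex IV COX4I1 had 355 ± 43.3 RPKM and COX7C 338 ± 42.1, within 1 SD of each other, and COX6C was lowest at 80.7 ± 17.7. In complex V ATP5E, the epsilon subunit of the F1 head, was highest at 756 ± 86.4 RPKM, on a counted length of 148 bases, which makes a value per kilobase sensitive to that length. ATP5J2, the f subunit of the membrane part, followed at 352 ± 38.2 RPKM.

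In counts without length the order differed, with ATP5B (632 CPM) and ATP5A1 (523 CPM), the catalytic beta and the alpha subunit of the F1 head, highest of all members. The lowest members of complex V were ATP5S (6.05 ± 1.04 RPKM) and ATP5L2 (6.70 ± 2.05). ATP5S and ATP5SL (39.3 ± 2.43) carry the symbol of ATP synthase but are now named DMAC2L and DMAC2 and are not counted among its subunits. UQCRHL (159 ± 24.3 RPKM) is a near-identical copy of UQCRH, so the split of reads between these 2 rows is uncertain. NDUFA4 is listed here in complex I by its symbol and is now held to be a subunit of complex IV.

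**Figure D1:**
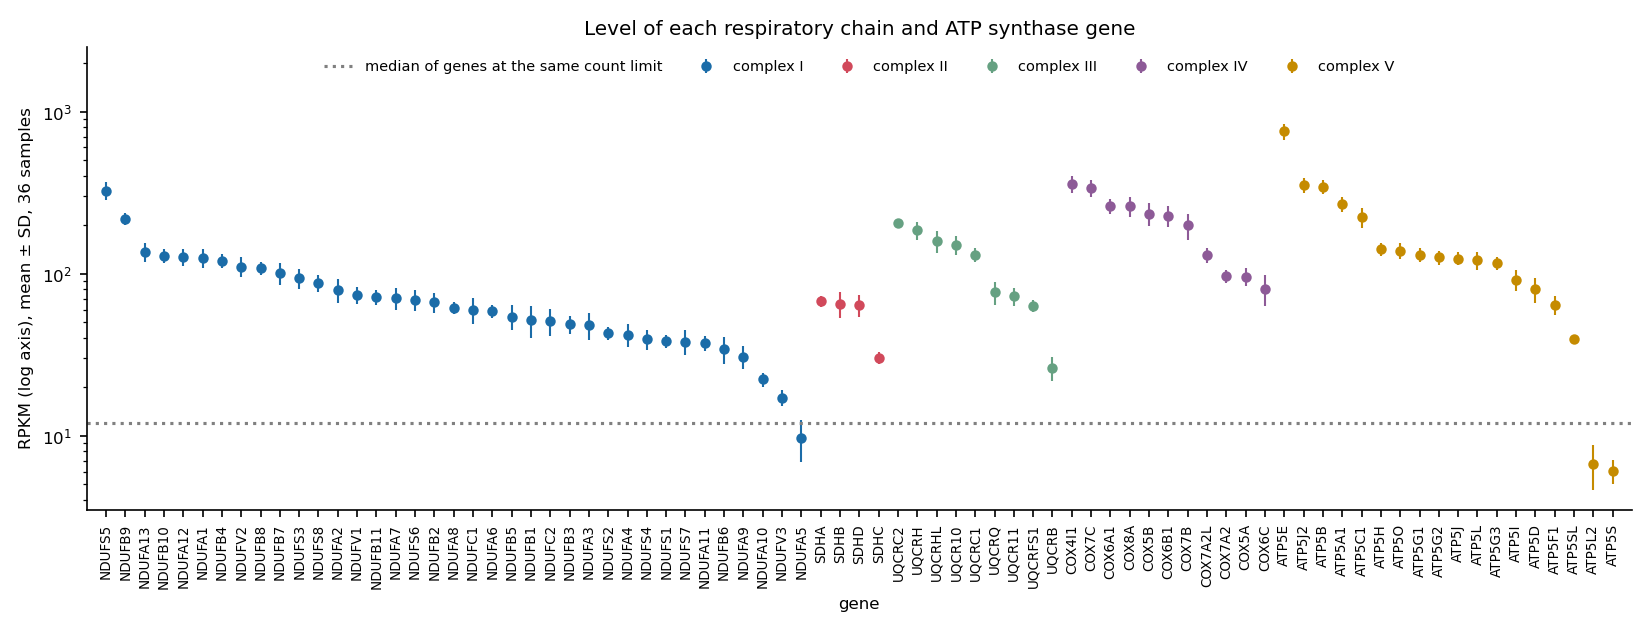
RPKM (log axis) of each of the 79 members, ordered within complexes I to V, as mean ± SD over 36 samples; the dotted line is the median of all genes at the same count limit (12.0 RPKM). Only NDUFA5, ATP5L2 and ATP5S lie below that line, and complex IV has no member under 80 RPKM.

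The 7 rows that matched a pattern but had too few counts were all tissue or paralogue isoforms. COX6A2, the heart and muscle form of COX6A, had 0 reads in the 36 libraries, which allows at most 3 counts in all by counting error. COX7B2 and COX8C, described as testis forms, had 1 read each, COX4I2 had 6, COX7A1, the heart and muscle form of COX7A, had 15, and COX6B2 had 36. NDUFA4L2, the paralogue of NDUFA4 that is known to be induced by hypoxia, had 287 reads. The forms that HepG2 did express, COX4I1, COX6A1, COX6B1, COX7A2, COX7B, COX8A and NDUFA4, had a mean of at least 42.0 RPKM each.

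The widest comparison of the design was time, 24 h against 6 h over all 6 treatments (mean of the 6 differences, joint fit of 36 samples, edgeR quasi-likelihood test). Of the 79 members 35 fell, 2 rose and 42 were not called, where a call needs an average log2 CPM above 0 and a p that is no higher than 0.05 after Benjamini-Hochberg adjustment over 12046 genes. The 35 falls are 44.3% of the members, against 31% of all genes called lower, and the 2 rises were NDUFV3 and UQCR10, against 30.1% of all genes called higher. The median log2 fold change of the members was -0.11, against -0.01 for all genes, and 56 of the 79 had a negative sign (70.9%, against 51.1% of all genes). All 79 passed the filter on low counts. With upper quartile scaling in place of TMM the split was 28 lower and 6 higher, 30 of these calls being shared with the 37 above. Of all genes 60.5% were called with this scaling.

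By complex, 3 of 4 members of complex II and 8 of 11 of complex IV fell, with median log2 fold changes of -0.19 and -0.20. In complex III 4 of 9 fell and 1 rose (median -0.11), in complex I 14 of 37 fell and 1 rose (median -0.07), and in complex V 6 of 18 fell (median -0.09). The shares called lower were 75% in II, 72.7% in IV, 44.4% in III, 37.8% in I and 33.3% in V, against 31% of all genes. Those of complexes I and V were near the share of all genes. The called falls ran from NDUFB4, which fell by 7.27%, to SDHB, which fell by 27.6%. The COX7C call was lost without DHA replicate 1 at 6 h, and it was kept in 7 of the 9 alternative settings (log2 fold change from -0.204 to -0.070). The difference between complexes was not tested.

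**Figure D2:**
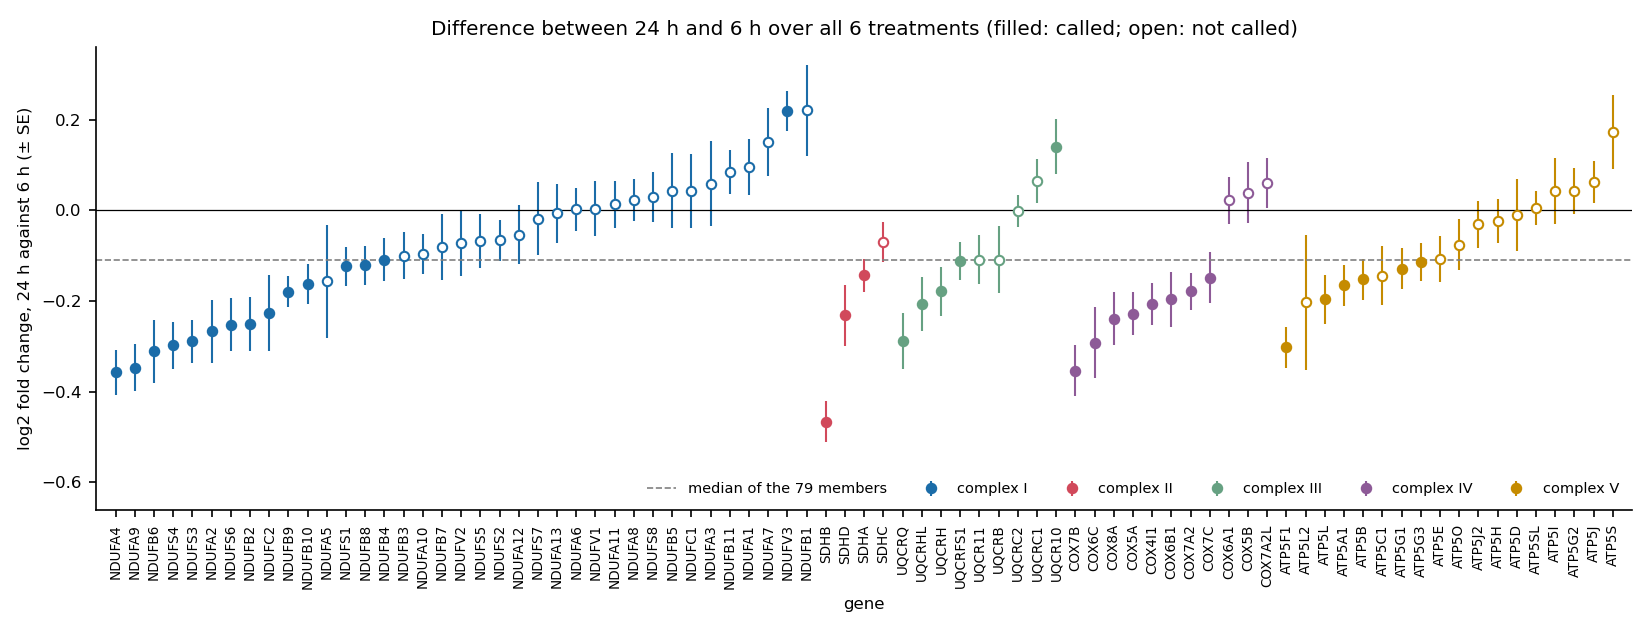
Log2 fold change ± SE of each member for 24 h against 6 h over all 6 treatments, ordered within complexes; filled points were called and open points were not, and the dashed line is the median of the 79 members (-0.11). SDHB is the lowest point (-0.47), all 4 points of complex II are below 0, and NDUFV3 and UQCR10 are the 2 filled points above 0.

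SDHB (hg19 chr1:17345225-17380665, minus strand), which carries the iron-sulfur clusters that pass electrons from succinate to ubiquinone, showed the largest fall. At 6 h its 18 samples ran from 70.9 to 97.7 CPM with a median of 85.8, and at 24 h from 51.7 to 69.2 CPM with a median of 63.7. Every sample at 24 h was below every sample at 6 h. It fell by 0.47 on the log2 scale (SE 0.046, adjusted p = 1.1e-10 by edgeR), and SDHB was the only member called in each of the 6 treatments taken alone. SDHB was named for the size of its fall. The shares of all genes without overlap, or called in all 6 treatments, are not given here.

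In Ctrl SDHB had 76.3, 82.9 and 97.7 CPM at 6 h and 57.0, 56.8 and 61.9 CPM at 24 h. In DHA it had 83.6, 84.4 and 93.3 CPM at 6 h and 59.2, 66.5 and 69.2 CPM at 24 h. The log2 fold change ran from -0.58 in DHA + PCA to -0.40 in PCA and in DHA + PRO, with an SE of 0.11 in each treatment. The change of the pooled DHA difference with time was 0.005 for SDHB (SE 0.091), and the other differences between treatments were not tested.

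SDHD (hg19 chr11:111957548-111966525), the small membrane anchor, fell by 0.23 on the log2 scale (SE 0.067, adjusted p = 0.0031 by edgeR). Its samples overlapped, from 66.6 to 113 CPM at 6 h and from 59.4 to 92.8 CPM at 24 h. SDHA (hg19 chr5:218338-257197) fell by 0.14 (SE 0.036, adjusted p = 0.0009), from a median of 183 to 172 CPM. SDHC (hg19 chr1:161284166-161334535) was not called, at 87.9 CPM at 6 h and 85.0 CPM at 24 h (medians, log2 fold change -0.07), and its row overlaps CFAP126 on the other strand.

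NDUFA4, COX7B and NDUFA9 followed SDHB in size. NDUFA4 ran from 81.6 to 115 CPM at 6 h (median 96.3) and from 64.6 to 90.1 CPM at 24 h (median 75.1), with a log2 fold change of -0.36 (SE 0.050, adjusted p = 1.8e-07 by edgeR). COX7B, a small subunit of complex IV, ran from 76.2 to 128 CPM at 6 h (median 100.3) and from 59.1 to 95.8 CPM at 24 h (median 78.4), with a log2 fold change of -0.35 (SE 0.056, adjusted p = 1.8e-06). NDUFA9, an accessory subunit at the junction of the arms of complex I, had a log2 fold change of -0.35 (SE 0.051, adjusted p = 5.6e-07) and medians of 55.8 and 42.7 CPM. The ranges of these 3 genes overlapped between times.

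COX7B was uneven over the treatments. In DHA it changed by -0.70 and in Ctrl by -0.53 on the log2 scale (SE 0.14 each, adjusted p = 0.00041 and 0.0044 by edgeR), and -0.02 in PRO (SE 0.14, adjusted p = 0.95). The 6 h samples of PRO had 100.8, 76.2 and 92.7 CPM and those of 24 h 92.5, 76.6 and 95.8 CPM, so the groups lay on top of each other. The difference between PRO and Ctrl in this change was not tested.

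NDUFV3 (hg19 chr21:44313378-44329773), an accessory subunit of the NADH-binding module of complex I, rose by 0.22 on the log2 scale (SE 0.044, adjusted p = 6.7e-05 by edgeR), or by 16.4%. Its samples ran from 27.4 to 38.2 CPM at 6 h (median 34.4) and from 34.3 to 45.7 CPM at 24 h (median 39.1). The rise was called in PCA alone, where it had 27.4, 31.4 and 30.98 CPM at 6 h and 42.9, 43.5 and 40.7 CPM at 24 h with no overlap (log2 fold change 0.51, SE 0.11, adjusted p = 0.00065). In DHA the value was 0.02 (SE 0.11). The mean of NDUFV3 was lower at 24 h in 0 of the 6 treatments, and the times did not overlap in 3 of them. The share of all genes without overlap is not given here, and the differences between treatments in this change were not tested. NDUFB1, an accessory subunit of complex I, had a log2 fold change of 0.22 as well and was not called. UQCR10, a small subunit of complex III, rose by 0.14 (SE 0.061, adjusted p = 0.045) on ranges of 96.2 to 164 and 121 to 179 CPM, and this call was lost in 20 of the 36 fits that left out 1 library.

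**Figure D3:**
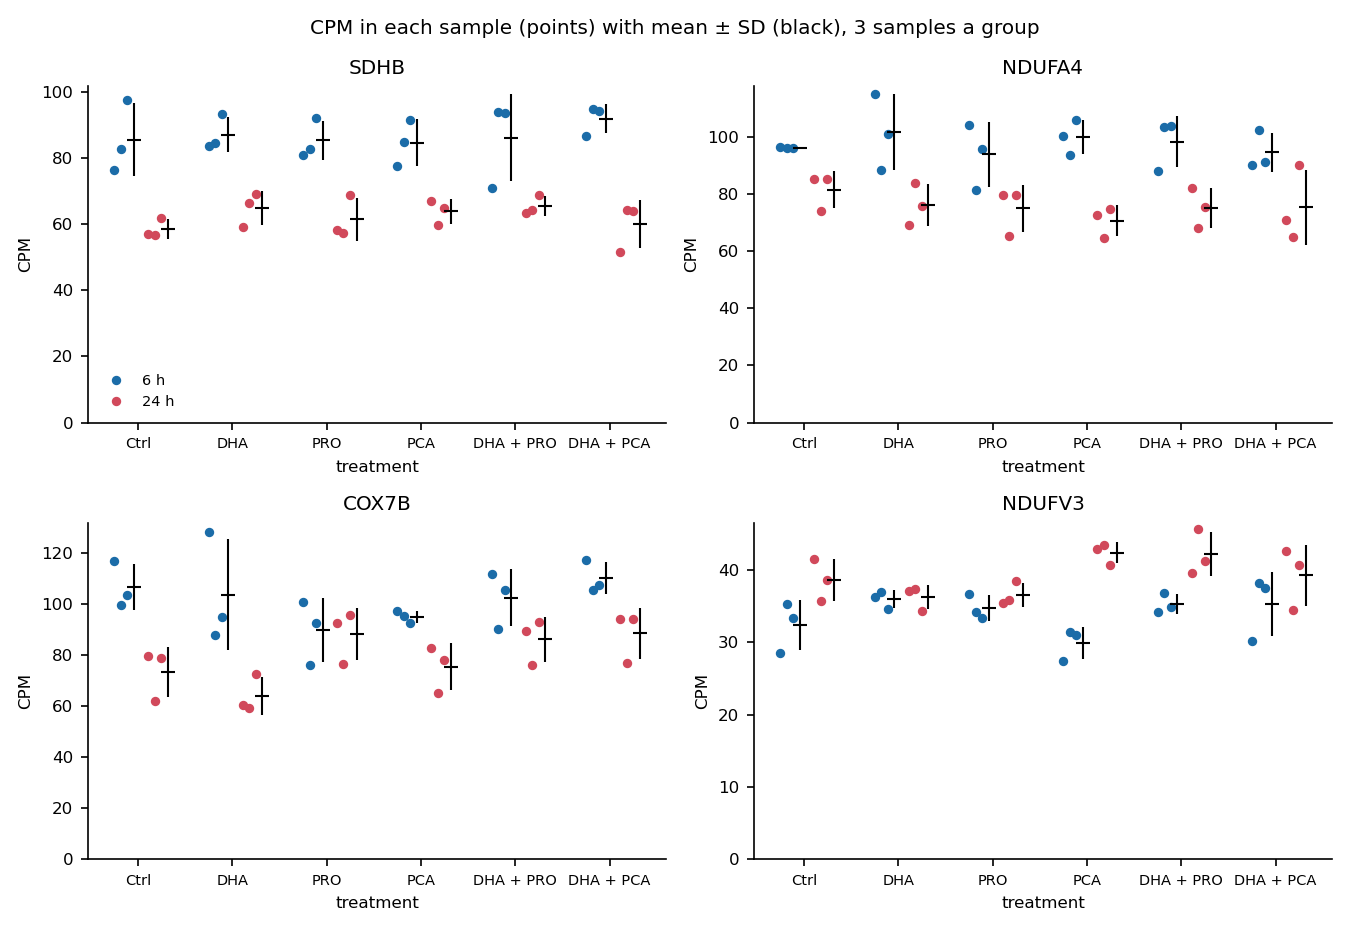
CPM of SDHB, NDUFA4, COX7B and NDUFV3 in each sample (points, 6 h blue and 24 h red) with mean ± SD (black, 3 samples a group) for the 6 treatments. For SDHB all red points lie below all blue points, for COX7B the 2 times coincide in PRO, and for NDUFV3 the times are farthest apart in PCA.

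Structural parts of the complexes, listed after the values were seen, held both called and uncalled members. For 24 h against 6 h, 31% of all genes were called lower and 30.1% higher. Of the 7 nuclear core subunits of complex I, which bind the flavin and most iron-sulfur clusters, NDUFS3 (-0.29) and NDUFS1 (-0.12) fell and 5 were not called, with a median log2 fold change of -0.07. Of its 30 accessory subunits in this list, NDUFA4 included, 12 fell and 1 rose (median -0.09). In complex III the Rieske iron-sulfur protein UQCRFS1 fell (-0.11), while the core proteins UQCRC1 (0.06) and UQCRC2 (-0.001) were not called.

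In the F1 head of ATP synthase ATP5A1 (-0.16) and ATP5B (-0.15) fell, and ATP5C1, ATP5D and ATP5E were not called. ATP5E (-0.11) was called in 6 of the 36 fits that left out 1 library (adjusted p down to 0.018 by edgeR) and under the length offset and both replicate blocks, and it was -0.07 without DHA replicate 1 at 6 h. In the peripheral stalk ATP5F1 fell (-0.30, SE 0.046) and ATP5H, ATP5J and ATP5O were not called. ATP5F1 was called in 4 of the 6 treatments, and its row overlaps WDR77 on the other strand (log2 fold change 0.10). The counting of overlapping genes was not given by strand, and 10 of the 79 members overlap another gene row, among them the called NDUFA2, NDUFC2, NDUFS3, UQCRQ and ATP5F1.

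The 3 genes ATP5G1, ATP5G2 and ATP5G3 encode the same mature c subunit of the rotor ring with different import sequences. Their levels were close, at 131 ± 13.02, 126 ± 12.1 and 116 ± 10.6 RPKM. ATP5G1 (-0.13, SE 0.044) and ATP5G3 (-0.11, SE 0.042) fell between 6 h and 24 h, and ATP5G2 had a log2 fold change of 0.04 (SE 0.051). The ATP5G3 call was lost with a GC offset (-0.037, adjusted p = 0.61 by edgeR) and with upper quartile scaling, which also ended that of ATP5G1 (adjusted p = 0.075), and ATP5G2 ran from 0.014 to 0.068 with 1 library left out. Medians were 87.2 and 81.3 CPM for ATP5G1, 141 and 151 CPM for ATP5G2, and 319 and 289 CPM for ATP5G3.

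Within single treatments the calls were few in the fit without a replicate block. In Ctrl 7 members fell (8.86%, against 11.9% of all genes), in DHA 14 (17.7%, against 8.87%), in PRO 3 (3.80%, against 5.43%), and in PCA 5 fell (against 13% of all genes) and NDUFV3 rose (against 14.5% called higher). In DHA + PRO 4 fell (against 9.46%) and in DHA + PCA only SDHB fell (1 member, against 8.25%). In all, 17 members were called lower in at least 1 treatment and 8 in at least 2. The matching shares of all genes are not given here, so these 2 counts are a description without a background. The members' medians were negative in each treatment, from -0.18 in DHA to -0.05 in DHA + PCA.

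The count in DHA depended on single libraries. In DHA at 6 h, replicate 1 had 1.07% of its counts in the 79 members, the highest share of all libraries, and 47 of the 79 members had their highest 6 h CPM there. Without it, the members called for time in DHA went from 14 to 3, and they were 8 without replicate 1 and 6 without replicate 2 of DHA at 24 h. Without that 6 h library the count was 11 in Ctrl and 10 in PCA (higher and lower together), both from the joint fit. In Ctrl it was 3 without replicate 2 at 24 h. In PRO it was 7 without replicate 2 at 6 h and 5 without DHA + PRO replicate 1 at 6 h. In DHA + PRO it was 1 without replicate 2 at 24 h, or replicate 2 or 3 at 6 h. In DHA + PCA it was 3 without replicate 3 at 24 h, and 2 without replicate 1 at 6 h of either DHA + PCA or DHA + PRO. Over all treatments the count stayed between 35 and 39 with any 1 library left out. The share of all genes called in these fits is not given here, so the changes in count cannot be set against a background. The part of replicate 1 of DHA at 6 h in the differences between treatments was not tested.

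The share of each library taken by the members gave the same contrast. At 6 h it ran from 0.830% to 1.07% with a median of 0.895% (18 libraries), and at 24 h from 0.755% to 0.913% with a median of 0.825%. The ranges overlapped, with 10 of the 18 libraries at 24 h below the lowest at 6 h. In Ctrl the share was 0.877% ± 0.018 (SD, n = 3) at 6 h and 0.801% ± 0.040 at 24 h.

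**Figure D4:**
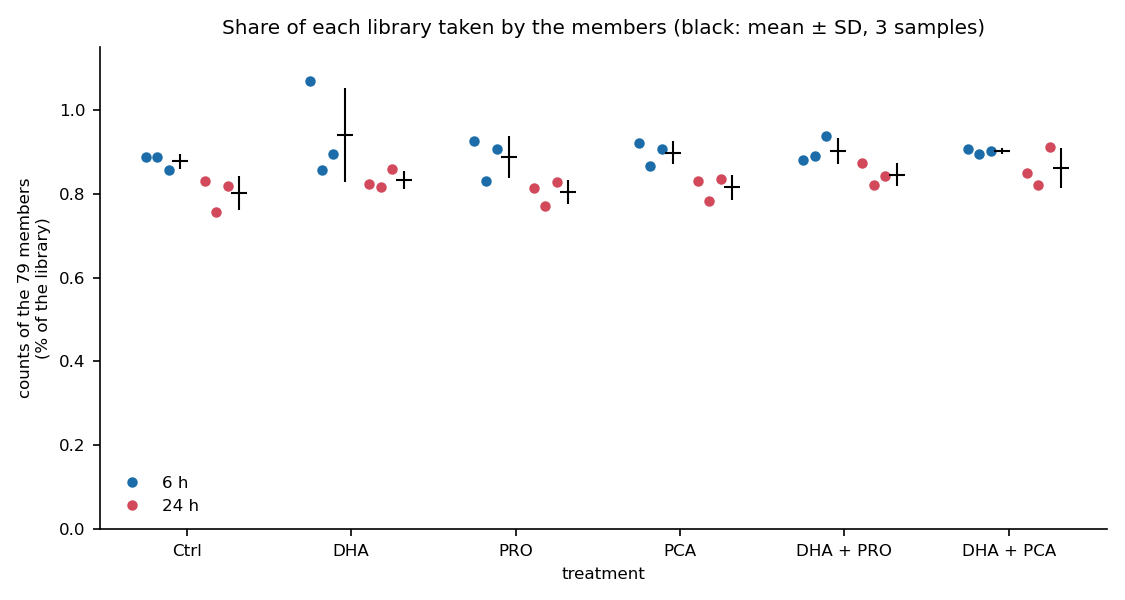
Counts of the 79 members as a percentage of each library (points, 6 h blue and 24 h red; black, mean ± SD of 3 samples) in the 6 treatments. The mean is lower at 24 h than at 6 h in every treatment, and the highest point is replicate 1 of DHA at 6 h (1.07%).

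Other gene lists were read beside the members for the same contrast, in which 31% of all genes were called lower and 30.1% higher. Of 38 proteasome subunits tested 33 fell (median log2 fold change -0.33), and of 77 mitochondrial ribosomal proteins 27 fell and 10 rose (median -0.08). Of 82 cytosolic ribosomal proteins 9 fell and 11 rose (median 0.01). The 773 genes at the same count limit with a counted length under 1000 bases, members left out, had a median of 0.01, with 215 lower and 217 higher.

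Assembly factors, which build the complexes without remaining in them, included 18 that fell and 5 that rose of 48 tested (median -0.11). The falls were 37.5% of these factors, against 31% of all genes. COX14 (-0.58), a factor of complex IV, TMEM70 (-0.44), a factor of ATP synthase, and NDUFAF6 (-0.42), a factor of complex I, had the largest falls. NDUFAF3 (0.43) and COA4 (0.24) had the largest rises, followed by SDHAF1 (0.20), a factor of complex II. Of 13 genes of the TCA cycle other than SDH 5 fell (38.5%, against 31% of all genes) and 3 rose. SUCLA2 (-0.31), IDH3B (-0.23) and IDH3A (-0.20) were lower and OGDH (0.36), IDH3G (0.28) and SUCLG1 (0.16) higher.

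Of 13 regulators of mitochondrial biogenesis 5 fell (38.5%, against 31% of all genes) and 3 rose. TFB2M (-0.44), a mitochondrial transcription factor, the coactivator PPARGC1A (-0.42) and GABPA (-0.41) had the largest falls, and YY1 (-0.34) and TFAM (-0.26) also fell. PPRC1 (0.32), PPARA (0.31) and GABPB1 (0.22) rose, and NRF1 had a log2 fold change of -0.07 (SE 0.062, adjusted p = 0.30 by edgeR). The GABPA row overlaps that of ATP5J on the other strand.

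Members were also counted by motif for the same contrast. Of 33 members with any of the 3 motifs 16 fell and 0 rose (median log2 fold change -0.11), and of 31 with none 13 fell and 2 rose (median -0.10). With an ETS core 10 of 19 fell (median -0.16), with a YY1 motif 5 of 12 and with an NRF1 core 3 of 8. As shares these are 48.5% with any motif, 41.9% with none, 52.6% with ETS, 41.7% with YY1 and 37.5% with NRF1. The share of all genes called lower was 31%.

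Among genes of the electron path that the naming rule leaves out, the 2 that were listed differed. CYC1, cytochrome c1 of complex III, rose by 0.68 on the log2 scale (SE 0.056, adjusted p = 1.8e-12 by edgeR), larger than the change of any member. It ran from 117 to 180 CPM at 6 h (median 142) and from 188 to 308 CPM at 24 h (median 234), with no overlap. How many of all genes show no overlap is not given here. CYCS, the mobile cytochrome c, was not called at -0.15 (SE 0.071, adjusted p = 0.072), with medians of 109 and 90.9 CPM. NDUFA4L2 rose by 2.55 (SE 0.30, adjusted p = 5.5e-09), from a median of 0.266 CPM at 6 h, with 3 of 18 libraries at 0, to 1.55 CPM at 24 h.

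No member passed the threshold in a treatment comparison (0 members called by edgeR and 0 by the DESeq2 Wald test in each comparison, both without a replicate block). With the replicate number as a block edgeR called 2 members with DHA + PRO at 24 h (UQCRHL and UQCRB) and 1 with DHA + PCA at 24 h (UQCRB). Of all genes this block called 1.14% and 1.09%. DHA was first compared over its 3 pairs of groups (DHA against Ctrl, DHA + PRO against PRO, DHA + PCA against PCA), 9 samples with DHA against 9 without. At 24 h 1.23% of all 11893 genes were called and 0 of the 79 members, with 5 members at an unadjusted p under 0.05, all higher. These are 6.33% of the members, against 9.88% of all genes. At 6 h 0.202% of 11872 genes were called and 0 members, with 1 member at an unadjusted p under 0.05 (1.27%, against 2.88% of all genes). The change of this difference with time was called for 0% of genes and 0 members, with 368 genes and 0 members at an unadjusted p under 0.05 and 6 genes by DESeq2.

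At 24 h the members' median log2 fold change with DHA was 0.06, against 0.01 for all genes, and 9 of 79 had a negative sign, against 47.55% of all genes. The same lean was seen in the 82 cytosolic ribosomal proteins (median 0.05), the 77 mitochondrial ribosomal proteins (0.07) and the 772 genes under 1000 bases that were not members (0.05). By complex it was 0.06 in I, 0.02 in II, 0.08 in III, 0.05 in IV and 0.06 in V. At 6 h the members' median was 0.04, and it was 0.004 without replicate 1 of DHA and 0.072 without replicate 2 or 3 of DHA.

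The lowest p with pooled DHA at 24 h was that of ATP5G1, at a log2 fold change of 0.17 (SE 0.062, adjusted p = 0.265 by edgeR). It had 75.4, 68.8 and 75.0 CPM in Ctrl and 81.8, 84.8 and 92.7 CPM in DHA. These groups did not overlap, which the choice of ATP5G1 by its lowest p favours. It had 70.1, 74.3 and 86.0 CPM in PRO against 85.3, 79.1 and 88.0 in DHA + PRO, and 80.7, 70.9 and 82.2 CPM in PCA against 82.9, 73.2 and 97.1 in DHA + PCA, and both of these pairs overlapped. No member had a larger difference than this in the pooled comparison, where the median SE was 0.069.

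Against Ctrl at 24 h the single treatments called 0.193% of genes with DHA, 0% with PRO, 0% with PCA, 0.395% with DHA + PRO and 0.286% with DHA + PCA, and 0 members each. Members at an unadjusted p under 0.05 were 1, 3, 2, 7 and 10 in this order, all higher with treatment. As shares of the members these are 1.27%, 3.8%, 2.53%, 8.86% and 12.7%, against 5.95%, 6.02%, 3.82%, 8% and 7.46% of all genes. Over all genes 716 reached this with PRO and 454 with PCA. DESeq2 called 1 gene with PRO and 0 with PCA. The members' medians were 0.05, 0.01, 0.06, 0.09 and 0.12. These comparisons share the 3 Ctrl samples, so they are not independent of each other.

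UQCRB had the lowest p with DHA + PCA (log2 fold change 0.43, SE 0.11, adjusted p = 0.16 by edgeR) and with PRO (0.36, SE 0.11, adjusted p = 0.78). It had 113.8, 100.2 and 93.2 CPM in Ctrl, 140.2, 148.4 and 121.5 CPM in DHA + PCA and 147.9, 129.6 and 118.6 CPM in PRO, and neither treated group overlapped Ctrl. With DHA + PCA it was called when the low count filter was left out, and also with a GC offset, a library series block or a replicate block. The lowest p with DHA + PRO was that of UQCRHL (0.38, SE 0.12, adjusted p = 0.33), with 71.6, 60.9 and 75.9 CPM in Ctrl and 95.3, 83.7 and 95.0 in DHA + PRO, but its reads may be shared with UQCRH.

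With PCA the lowest p at 24 h was that of NDUFA7, an accessory subunit of complex I (0.28, SE 0.12, adjusted p = 0.99 by edgeR). It had 37.9, 41.2 and 38.1 CPM in Ctrl and 56.4, 40.8 and 45.2 CPM in PCA, which overlap, and the log2 fold change was 0.14 without PCA replicate 1. With DHA alone it was again ATP5G1 (0.25, SE 0.11, adjusted p = 0.78).

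Against Ctrl at 6 h 0.0168% of genes were called with DHA, 0% with PRO, 0% with PCA, 0.0168% with DHA + PRO and 0.0168% with DHA + PCA, and 0 members each. Members at an unadjusted p under 0.05 were 4, 0, 1, 2 and 4, or 5.06%, 0%, 1.27%, 2.53% and 5.06%, against 2.84%, 1.65%, 0.724%, 2.22% and 3.15% of all genes. Over all genes 196 reached this with PRO and 86 with PCA, where DESeq2 called 0. COX5B, a peripheral subunit of complex IV, had the lowest p in each of the 5, with log2 fold changes from 0.34 (PRO) to 0.53 (DHA), SE 0.17, and adjusted p of at least 0.9986 by edgeR. Without Ctrl replicate 3 the value with PRO was 0.20, with PCA 0.26 and with DHA + PRO 0.26, and without Ctrl replicate 2 it was 0.55, 0.62 and 0.61. Its Ctrl samples at 6 h had 86.5, 113.5 and 69.3 CPM and those of DHA 150.2, 115.4 and 124.9 CPM. The same 3 Ctrl samples entered all 5 comparisons, and at 24 h Ctrl had 102.9, 101.4 and 132.5 CPM of COX5B.

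**Figure D5:**
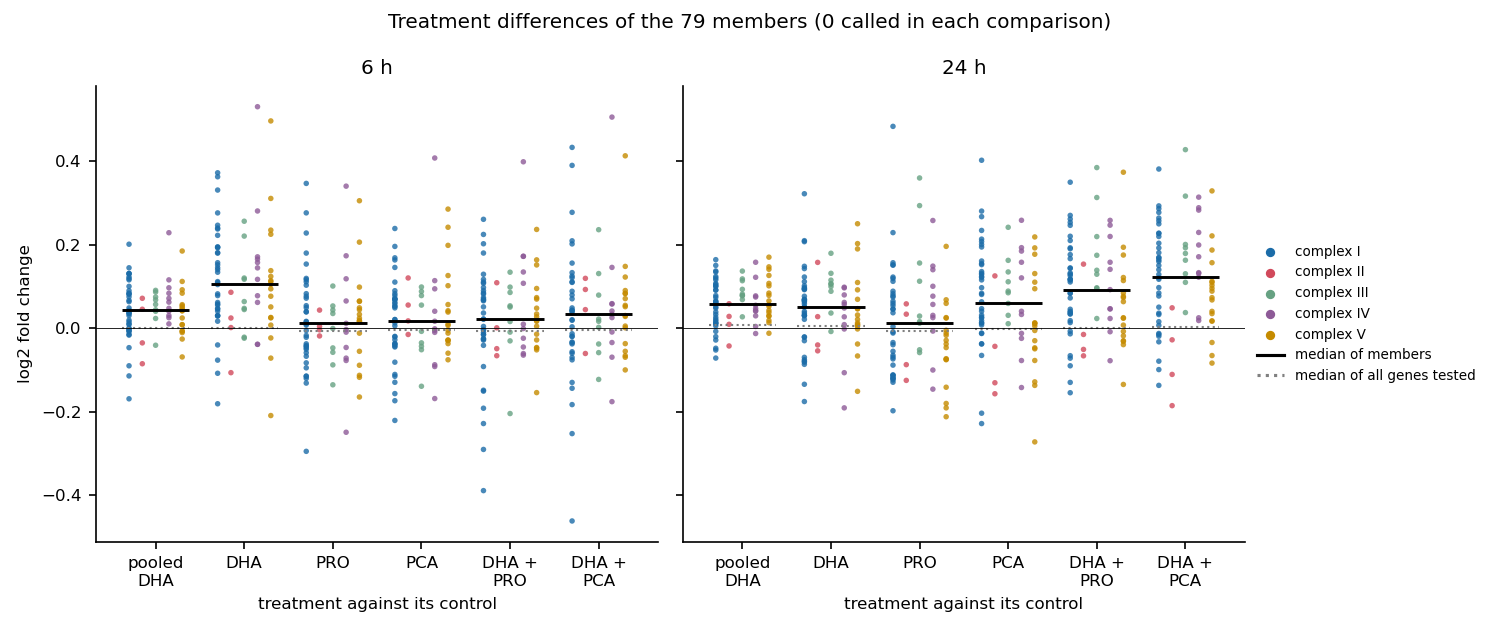
Log2 fold change of each of the 79 members (points, coloured by complex) for pooled DHA and for each treatment against Ctrl at 6 h and 24 h, with the median of the members (black) and of all genes tested (dotted). No member was called in these fits, and the members' median lies above that of all genes in each comparison, most with DHA + PCA at 24 h (0.12). Under a length offset this did not hold at 6 h for PRO, PCA, DHA + PRO and DHA + PCA.

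The precision was limited by 3 cultures a group. In the fits without a replicate block the median SE of a member's log2 difference from Ctrl was 0.12 at 24 h and 0.14 at 6 h. Differences of the size seen for time (median -0.11) were therefore not detectable in these fits for a single member in a single treatment.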

How the data were processed

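RNA-seq libraries of HepG2 (unstranded TruSeq v2 kit) were aligned to hg19 with STAR and counted with iRNA-seq by the authors, who deposited raw read counts for 18932 RefSeq genes with each gene's counted length and no normalization. Samples were grouped by treatment and time from the labels. TMM scaling, filterByExpr and the quasi-likelihood test of edgeR 4.0.16 (R 4.3.3) were applied to the deposited counts, jointly over 36 samples for time and over the 18 samples of each time for treatments. Alternatives were the DESeq2 1.42.0 Wald test and size factors, upper quartile scaling, no filter, length and GC offsets, library series and replicate blocks, and leaving out each library. The GC offset and the block shared by both times were added after seeing the data. The fits were tested on simulated data. By rule the text names the highest 2 and the lowest of each complex by RPKM, up to 4 called rises and 4 falls with time, the lowest p of each treatment comparison, the paralogue and isoform lists, and up to 3 called genes each way of the assembly, regulator and TCA lists. Other genes were named after their values were seen. Members, lists and tests were chosen with earlier results of these data known. That the cultures were independent is stated by the paper and not by the labels. Intervals and floors cover counting error only.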

Additional observations from a re-analysis of the deposited data

How the results depend on the processing

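The time count over all treatments (37 called) ran from 34 to 51 over the alternatives, with 50 lower and 1 higher under a length offset and 44 and 2 under a GC offset. Of all genes 60.5% were called under upper quartile scaling, which gave the 34, 64.4% under the length offset and 65.3% under the GC offset. Both offsets also moved the median of all genes for time, from -0.008 to -0.075 with length and to -0.059 with GC. With the GC offset the members' median was -0.135. A length offset moved the members' median to -0.182 for time, 0.023 for pooled DHA at 24 h and 0.014 at 6 h, and turned ATP5G2 to -0.059. With DHA + PCA against Ctrl at 24 h it moved that median to 0.063. At 6 h it put the median below that of all genes with PRO (-0.041 against -0.011) and PCA (-0.026 against -0.005). The same held at 6 h with DHA + PRO (0.004 against 0.014) and DHA + PCA (-0.023 against 0.003). Upper quartile scaling turned ATP5J2 to 0.0044 and UQCRC2 to 0.034. UQCRC2, near 0 throughout, was also turned by the DESeq2 Wald test (0.000840), DESeq2 size factors (0.000539), the GC offset (0.077) and the library series block (0.000942), and ran from -0.014 to 0.010 with 1 library left out. Members called within treatments, in the order Ctrl, DHA, PRO and PCA alone and then DHA + PRO and DHA + PCA, were 14, 24, 13, 13, 8 and 9 under the GC offset. The shares of all genes called there were 29.7%, 28.4%, 23.4%, 28.3%, 24.8% and 28.1%. Under the length offset the members called were 21 in Ctrl, 12 in PRO, 25 in PCA, 20 in DHA + PRO and 14 in DHA + PCA. Of all genes 29.9%, 17.1%, 30.6%, 24.4% and 22% were called. The library series block gave 5 members in PRO, 11 in PCA and 3 in DHA + PCA, against 19%, 33.6% and 23.7% of all genes. Upper quartile scaling gave 9 members in DHA, against 18.6% of all genes. With 1 library left out the members called, in the order first given, ran from 3 to 11, 3 to 19, 2 to 7, 4 to 10, 1 to 6 and 1 to 3. The shares of all genes called in those fits are not given here. For treatments at 24 h, DHA + PCA gave 1 member (UQCRB) under the GC offset, the series block and no filter, and DHA + PRO gave 1 (UQCRB) under the GC offset. Of all genes 0.563%, 0.446% and 0.444% were called there with DHA + PCA and 0.74% with DHA + PRO. With 1 library left out the members' median ran from -0.118 to -0.092 for time, between 0.040 and 0.072 for pooled DHA at 24 h and between 0.0037 and 0.072 for pooled DHA at 6 h. The cause of these changes was not tested.

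The deposited column names give a replicate the same pooled replicate numbers in every group and at both times. The paper describes independent cultures whose replicates were pooled within an experiment. Neither says outright that 1 experiment was shared by all groups. The correlation of same-numbered samples' deviations averaged 0.240 at 6 h and 0.145 at 24 h, but was as low as -0.112 and -0.176. At 6 h 16 of 18 samples and at 24 h 17 of 18 correlated best with their own number, a sign of pairing. The fits without a block leave such pairing out and were kept as first written. With the replicate block 38 members fell and 5 rose over time, including the 37 above, against 67.3% of all genes called. Within treatments the block called 19, 23, 13, 18, 13 and 9 members, against 36.4%, 29.1%, 24%, 38.7%, 31.3% and 28.7% of all genes. A block shared by both times called 15 in Ctrl, 10 in PRO, 16 in PCA, 12 in DHA + PRO and 6 in DHA + PCA. The shares of all genes called there were 33.4%, 20.9%, 35.5%, 27.9% and 25.4%. At 24 h the replicate block called 1 member with DHA + PCA (UQCRB) and 2 with DHA + PRO (UQCRHL and UQCRB). Of all genes it called 1.09% and 1.14%.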
